A study of Bos taurus with 16 samples.

Results

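The vesicle coat and sorting proteins on a custom cattle (Bos taurus) cDNA array were followed in kidney RNA before and after linear amplification. Members were array features, each a spotted cDNA clone printed as 2 spots, whose listed gene symbol names a COPI or COPII coat subunit or another SEC protein, a p24 cargo receptor (TMED, with TMED5 left out), a clathrin chain, a subunit of adaptor complexes AP1 to AP4, a sorting nexin (SNX), a VPS protein, a syntaxin (STX) or a VAMP. This gave 93 features on 186 spots out of 5693 features with a listed gene, and 92 of the 93 entered the tests. They stand for 74 genes, plus 1 feature listed for both SEC24B and SEC24A, from which no single gene is named. In all, 16 genes had several clones, which are called clone 1, 2 and 3 and share a target.

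A common reference RNA was hybridised with each of 8 kidney RNAs on 2 arrays, with the dyes exchanged between them (a dye swap). The groups were unamplified total RNA (round 0) and RNA amplified linearly once, or in 2 or 3 successive rounds, each with replicates named 1 and K (n = 2 per round). Linear amplification copies RNA through cDNA and in vitro transcription, so that very small samples such as single embryos can be arrayed. The reference, whose tissue the labels do not name, had itself been amplified for 2 rounds, so round 0 set unamplified kidney against an amplified reference. No strain, age or treatment of the cattle is labelled. Whether the replicates came from different animals or from repeated amplification of a single RNA is not stated, so the spread behind every p-value is that between these RNAs and may be technical.

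Values are log2 ratios of kidney over reference, relative to the median of each array, with the dye swap of each RNA averaged. Because the deposited ratios do not state which dye is on top, their direction is likely rather than certain: it was taken from 20 features of 12 kidney tubule genes, whose median at round 0 was then 2.28 on arrays with kidney in Cy5 and 3.04 on arrays with kidney in Cy3. Over rounds 0 to 3 the tubule median was 2.67, 2.72, 2.80 and 2.49, immune markers (10 features) had medians of -0.46, -0.55, 0.23 and -0.09, and stromal markers (14 features) had medians of -1.18, -0.18, -0.56 and -0.69. Features within a list went both ways: at round 0 they ran from -0.61 to 6.62 for tubule, -2.36 to 0.81 for immune and -3.96 to 5.72 for stromal markers. The part of shifts in these medians in the results was not tested. Fewer cells of a type and less RNA per cell cannot be told apart in bulk RNA. In the amplified columns 83.2% to 88.2% of cells were written with 3 decimals, against 100% in the round 0 columns, so a difference in how round 0 was processed and the amplification itself cannot be told apart.

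Proteins bound for secretion or the cell surface enter the endoplasmic reticulum (ER) through the SEC61 channel, leave it in COPII-coated vesicles and are kept in balance by COPI-coated vesicles that carry escaped proteins back. From the Golgi onward, clathrin and the adaptor complexes select cargo, sorting nexins and retromer retrieve receptors from endosomes, and the ESCRT machinery passes ubiquitinated receptors to lysosomes. Tethering complexes and SNARE proteins (syntaxins and VAMPs) then join each vesicle to its target membrane. In kidney tubules this traffic places transporters at the apical or basolateral surface and recycles the receptors that take filtered proteins back up.

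The members lay closer to the reference than features at large. Their median ratio over rounds 0 to 3 was 0.05, 0.01, 0.13 and -0.09, with interquartile ranges of 0.75, 1.00, 0.77 and 0.76, against 1.16, 1.14, 1.08 and 1.05 for all 5537 tested features. A ratio beyond 1 in size, a 2-fold difference, was held by 13%, 13%, 14.1% and 8.7% of members, against 25.9%, 26.2%, 24.4% and 24% of all tested features. These shares are descriptions and were not tested. At round 0, 16 members were called above the reference (limma, adjusted p under 0.05 over all tested features), where 19.6% of all features were, and 13 below, where 19% were. At round 1, 16 were called above and 15 below, beside 16.9% and 20.9% of all features. At round 2, 11 were above and 13 below, beside 16.5% and 18.6%. At round 3, 12 were above and 10 below, beside 16.7% and 18.4%.

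The agreement of the arrays limits what can be read from single members. Across members, the 2 arrays of a dye swap correlated at 0.437 and 0.529 for replicates 1 and K of round 0, 0.434 and 0.058 at round 1, 0.159 and 0.292 at round 2, and -0.073 and 0.542 at round 3. Over all features with a listed gene the same correlations were 0.235 to 0.663. The averaged replicates of a round correlated at 0.659, 0.581, 0.685 and 0.395 across members, and they differed by a median of 0.18, 0.28, 0.28 and 0.32. Over all features with a listed gene they correlated at 0.807, 0.724, 0.733 and 0.713, and differed by a median of 0.21, 0.37, 0.34 and 0.33. Features are not independent replicates, and the 2 arrays of a swap share the RNA and the spots.

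**Figure D1:**
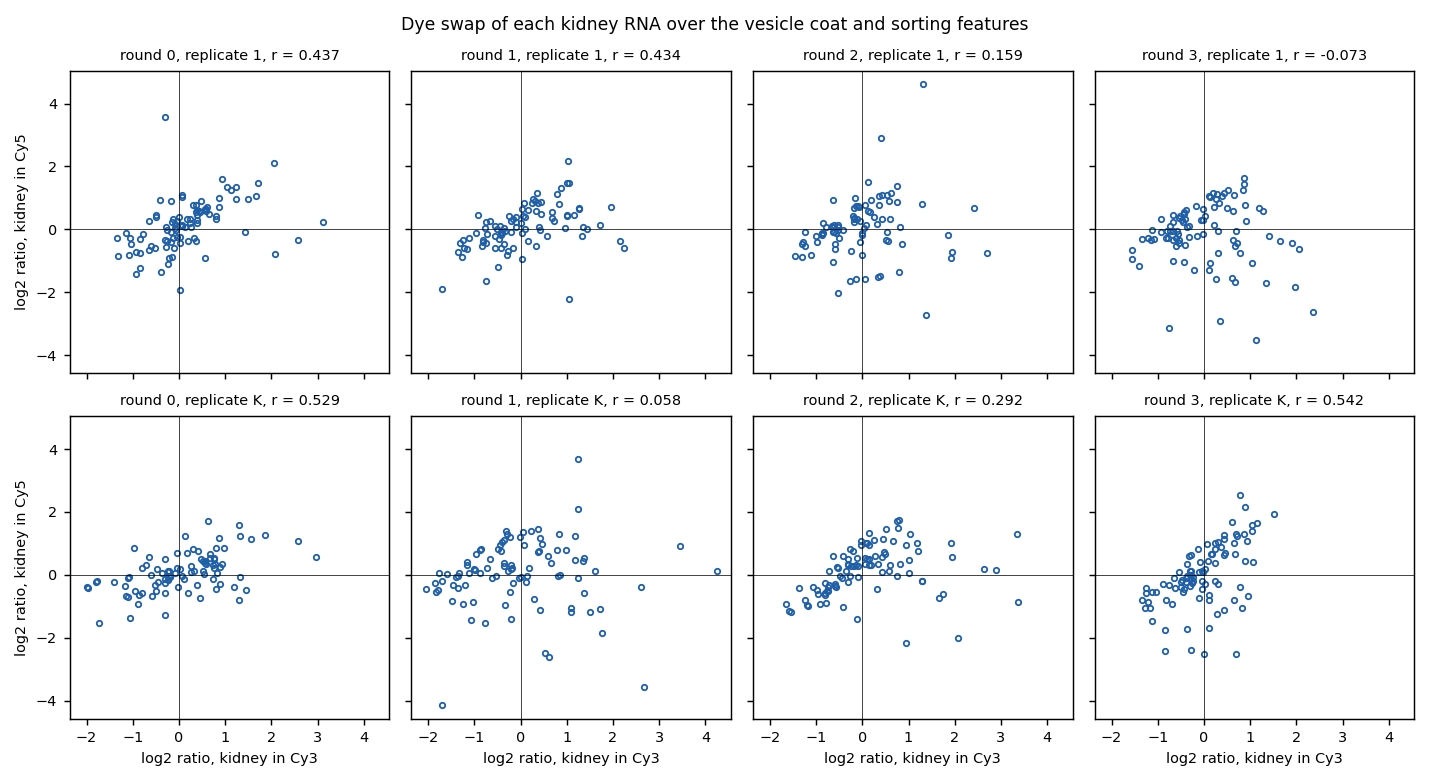
Log2 kidney/reference ratio of each member on the array with kidney in Cy5 (vertical) against the array with kidney in Cy3 (horizontal), 1 panel per kidney RNA, replicate 1 above and replicate K below. Points rise loosely together in both round 0 panels (r of 0.437 and 0.529), in round 1, replicate 1 (0.434) and in round 3, replicate K (0.542). They scatter without a trend in round 3, replicate 1 (r of -0.073) and round 1, replicate K (r of 0.058).

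Amplification was accompanied by called changes in a minority of members. Against round 0, 5 of 92 members rose and 6 fell at round 1, where 5.4% of all features rose and 7.87% fell. At round 2, 5 rose and 4 fell, beside 4.39% and 6.79% of all features, and at round 3, 3 rose and 5 fell, beside 4.57% and 7.04%. In total 17 members were called at 1 or more rounds (18.5%, against 20.4% of all features), 8 of them at 1 round, 7 at 2 rounds and 2 at all 3 rounds, SEC61A1 and VPS29. Of all tested features, 5.63% were called in 1 direction at all 3 rounds. The members' shares lie near those of features at large.

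These directions are relative to each array's median. Without centring, the median change of all features was -1.04, -0.08 and -0.34 at rounds 1, 2 and 3, and the members' calls split into 0 up and 38 down, 0 up and 1 down, and 0 up and 3 down, where 1868, 67 and 130 of the 5537 features were called in either direction. Against the reference the uncentred calls were 33 up and 0 down, 1 up and 16 down, 23 up and 0 down, and 11 up and 1 down over rounds 0 to 3, where 1974, 1466, 1728 and 1222 of all features were called. With arrays also scaled to 1 median absolute deviation, the changes split into 7 up and 5 down, 6 up and 6 down, and 3 up and 7 down, beside 719, 789 and 844 of all features. The calls against the reference then split into 17 and 14, 12 and 14, 12 and 14, and 13 and 13, beside 2362, 1899, 2000 and 1994 of all features. The median change of the members was -0.16, -0.11 and -0.12 at rounds 1, 2 and 3, against -0.03, 0.01 and 0.00 for all features. Every fit without 1 of the RNAs called fewer changes from round 0 over all features than the fit of all RNAs. How many calls of features at large held in such fits was not counted, so the members' counts have no share beside them. Leaving out 1 of the 8 RNAs at a time, 2 of the 28 called changes held in all 8 fits, 13 held in at least 4 and 10 in none.

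**Figure D2:**
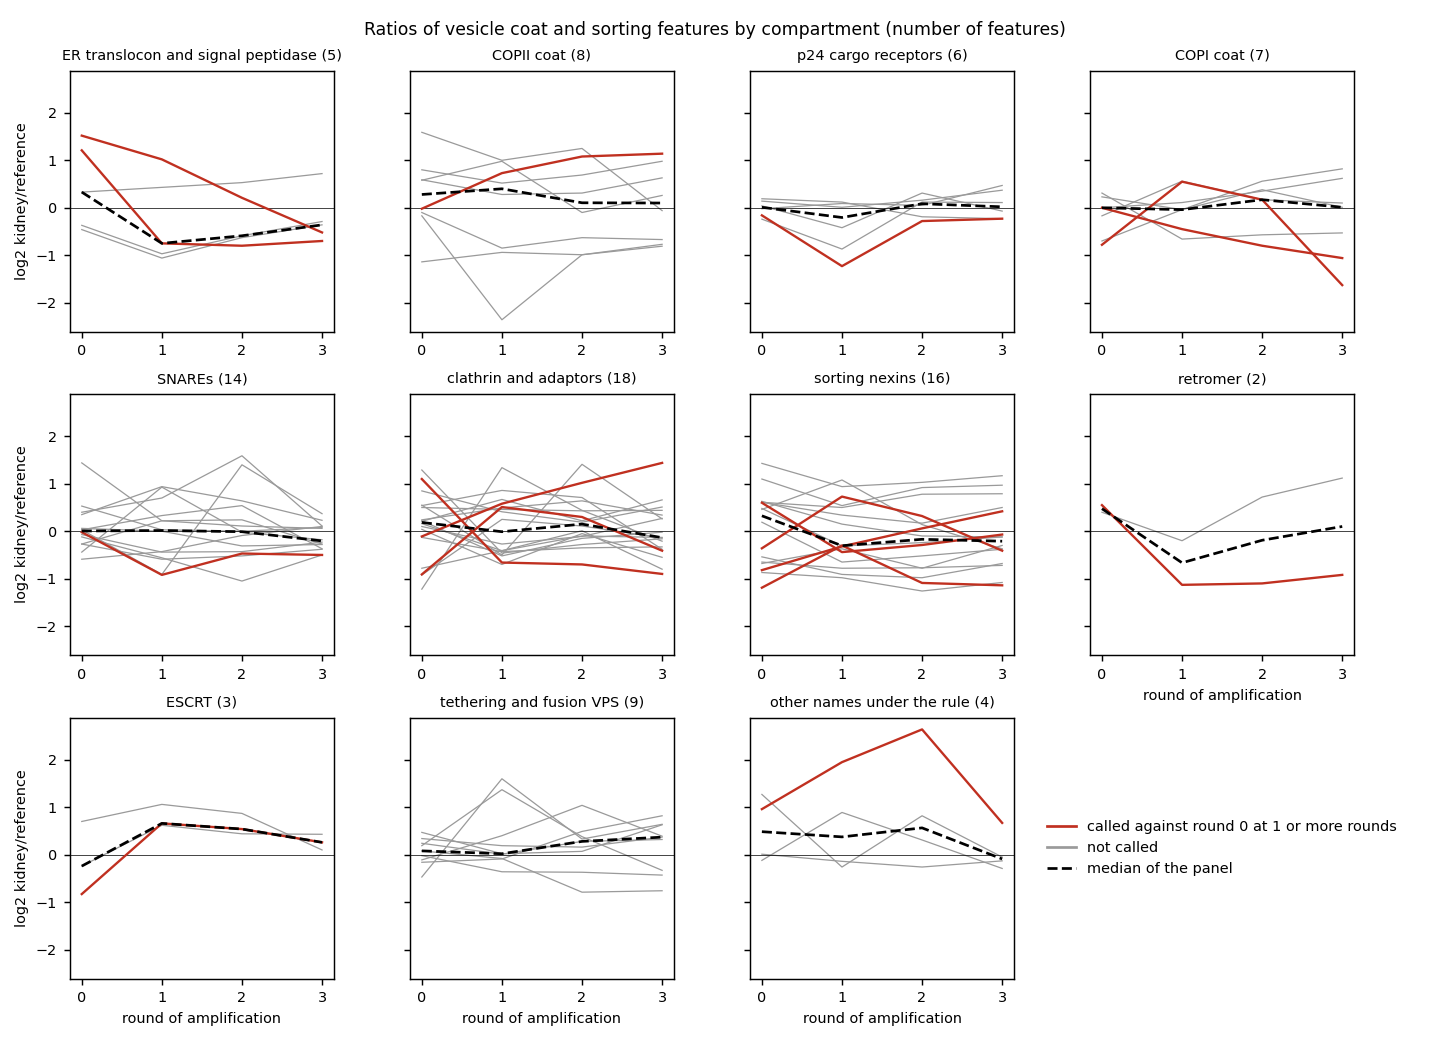
Mean log2 kidney/reference ratio of each tested member (vertical) at rounds 0 to 3 (horizontal), in a panel per compartment, with members called against round 0 in red, the others in grey and the panel median dashed. The medians stay between -0.75 and 0.66 in every panel, while single members such as SEC61A1 and VPS29 drop after round 0 and the upper feature of the last panel, VPS13C clone 2, peaks at 2.64.

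At the gate of the ER, the SEC61A1 and SEC62 features stood lower in every amplified kidney RNA than in both unamplified ones. SEC61A1, the pore subunit through which growing proteins enter the ER, had ratios of 1.26 and 1.17 in replicates 1 and K at round 0, -0.55 and -0.95 at round 1, -0.70 and -0.89 at round 2, and -0.82 and -0.58 at round 3. All 6 amplified RNAs stood below the reference and both unamplified RNAs above it. The change was -1.96 ± 0.23 at round 1 (SE, limma adjusted p = 0.0083), -2.01 ± 0.23 at round 2 (0.00974) and -1.91 ± 0.23 at round 3 (0.00922), about the same after each round. The sign was alike on both arrays of all 8 dye swaps, and the calls at rounds 1 and 3 held without any one RNA. At round 2 the call was lost without either RNA of that round (adjusted p up to 0.0581).

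SEC62, a membrane partner of the channel that helps short or finished chains cross, moved stepwise. Its ratios were 1.59 and 1.44 at round 0, 1.23 and 0.82 at round 1, 0.08 and 0.34 at round 2, and -0.50 and -0.53 at round 3. No RNA of a later round reached the lower one of an earlier round. The change was -0.49 at round 1 (adjusted p = 0.197), -1.31 ± 0.23 at round 2 (0.0232) and -2.03 ± 0.23 at round 3 (limma adjusted p = 0.00817). The call at round 3 was lost only without replicate K of round 3 (adjusted p = 0.0506), and that at round 2 without either RNA of round 0 or round 2 (adjusted p up to 0.103).

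SEC11A and SEC11C, alternative catalytic subunits of the signal peptidase that trims the signal sequence of entering proteins, lay on opposite sides of the reference. SEC11A was below it, with means of -0.37, -0.97, -0.59 and -0.29 for clone 1 and -0.46, -1.06, -0.63 and -0.36 for clone 2 over rounds 0 to 3. The clones differed by at most 0.09 at any round. SEC11C was above it, at 0.33, 0.43, 0.53 and 0.72. Both SEC11A clones were called below the reference only at rounds 1 and 2, and SEC11C above it only at rounds 2 and 3. Neither gene had a called change, the smallest adjusted p being 0.121 for SEC11A at round 1.

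Among the 8 features of the COPII coat, 1 was called against round 0, beside 20.4% of all features called at 1 or more rounds. Another 2 kept to 1 side of the reference throughout. SEC16A, the scaffold that marks the ER sites where COPII vesicles form, had ratios of 0.16 and -0.20 at round 0, 0.76 and 0.71 at round 1, 1.06 and 1.09 at round 2, and 0.89 and 1.39 at round 3. All amplified RNAs lay above both unamplified ones. It rose by 1.10 ± 0.25 at round 2 (limma adjusted p = 0.0422) and by 1.16 ± 0.25 at round 3 (0.0371), and neither call held in any of the 8 fits that left out 1 RNA (adjusted p of 0.0509 to 0.181 and 0.0546 to 0.159).

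SEC13, a subunit of the outer COPII cage that also serves in the nuclear pore, was below the reference in every RNA, with -1.08 and -1.20 at round 0, -0.80 and -1.08 at round 1, -0.97 and -1.02 at round 2, and -0.70 and -0.91 at round 3. Its largest limma adjusted p against the reference over the 4 rounds was 0.00769. The feature listed for both SEC24 genes, which encode cargo-binding subunits of the inner coat, was above it at all rounds, with means of 0.80, 0.52, 0.69 and 0.98. Calls on 1 side at all 4 rounds went to 2 members above, beside 6.63% of all features, and to 3 below, beside 7.89%.

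The lowest COPII feature was SEC24D, another cargo-binding subunit, and its replicates disagreed. It had -0.96 and 0.62 at round 0, -1.81 and -2.92 at round 1, -0.89 and -1.09 at round 2, and -0.74 and -0.81 at round 3. The change at round 1, -2.19 ± 0.57, missed the threshold (limma adjusted p = 0.0537). SEC31A, the partner of SEC13 in the outer cage, was above the reference in most RNAs, unlike SEC13. Its clone 2 was the highest COPII feature, with means of 1.59, 1.00, 1.25 and -0.06, and the change of -1.66 at round 3 was not called (adjusted p = 0.0593). The sign was alike in 3 of its 8 swaps, and at rounds 2 and 3 its Cy5 arrays read -2.62 to 0.15 and its Cy3 arrays 0.31 to 2.90. Clone 1 stood at 0.59, 0.28, 0.31 and 0.63, and clone 3 at 0.58, 0.98, -0.10 and 0.26. SEC23IP, which binds the inner coat at exit sites, had means of -0.10, -0.85, -0.63 and -0.67.

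The p24 cargo receptors, which cycle between ER and Golgi and package membrane proteins, had no feature called above the reference at any round and 2 of 6 called below it, both at round 1, where 20.9% of all features were. Their panel medians were 0.01, -0.20, 0.08 and 0.02. TMED1 had ratios of -0.34 and 0.03 at round 0, -1.20 and -1.25 at round 1, -0.41 and -0.15 at round 2, and -0.10 and -0.36 at round 3. It fell at round 1 alone, by 1.07 on the log2 scale (SE 0.23, limma adjusted p = 0.0363), and rounds 2 and 3 overlapped round 0. That call held in none of the fits that left out 1 RNA (adjusted p of 0.0554 to 0.152). TMED4 was the highest p24 gene, with means of -0.02, 0.09, 0.05 and 0.47 for clone 1 and 0.14, 0.01, 0.16 and 0.37 for clone 2. TMED9 stood at 0.04, -0.42, 0.31 and -0.07 for clone 1 and -0.24, -0.87, 0.12 and 0.11 for clone 2, and TMED10 at 0.19, 0.12, -0.19 and -0.23.

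Of 7 features of coatomer, the complex that forms the COPI coat, COPZ1 rose at round 1 and COPB2 fell at round 3. Of all features, 5.4% rose at round 1 and 7.04% fell at round 3. COPZ1, its zeta subunit, had ratios of -0.80 and -0.76 at round 0, 0.51 and 0.60 at round 1, 0.04 and 0.29 at round 2, and -1.95 and -1.30 at round 3. It was above both unamplified RNAs at rounds 1 and 2 and below both at round 3. The change was 1.33 ± 0.27 at round 1 (limma adjusted p = 0.0304), 0.95 at round 2 (0.0716) and -0.85 at round 3 (0.0875). The call at round 1 was lost in 6 of the 8 fits that left out 1 RNA, all but those without a round 3 RNA (adjusted p up to 0.114). Without centring the change at round 1 was 0.32. With centring it was 1.02 on arrays with kidney in Cy5 (limma adjusted p = 0.264) and 1.64 on those with kidney in Cy3 (0.0143).

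COPZ1 was also the only member called between amplified rounds, with round 3 minus round 1 at -2.18 ± 0.27 (limma adjusted p = 0.046), where 0.289% of all features were called in any such pair. The sign was alike on both arrays of all 8 of its dye swaps, while the size differed. The change was -2.77 on Cy5 arrays alone and -1.59 on Cy3 arrays alone, and the call was lost in both (limma adjusted p = 0.0808 and 0.154). That call held in none of the fits without 1 RNA, where the adjusted p was 0.0708 to 0.143. No member was called by limma between rounds 1 and 2 or between rounds 2 and 3, although 7 and 10 of 92 had an unadjusted p under 0.05, beside 10.3% and 7.24% of all features. Between rounds 1 and 3, 21 did, beside 21.2% of all features.

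COPB2, the coatomer subunit that reads retrieval signals of ER proteins, had ratios of -0.08 and 0.08 at round 0, -0.26 and -0.64 at round 1, -0.89 and -0.72 at round 2, and -1.29 and -0.83 at round 3. All amplified RNAs lay below the unamplified ones. It fell at round 3 by 1.06 on the log2 scale (SE 0.26, limma adjusted p = 0.0472), a call that held in none of the fits without 1 RNA (adjusted p of 0.0542 to 0.178). COPB1, the beta subunit, had means of -0.17, 0.56, 0.17 and 0.10, and COPE, the epsilon subunit, -0.70, -0.04, 0.38 and 0.01. COPG2, a gamma subunit, was the highest COPI gene, with 0.00, 0.11, 0.35 and 0.62 for clone 1 and 0.23, -0.04, 0.56 and 0.82 for clone 2, whose sign was alike in 4 of 8 swaps. COPZ2, a paralog of COPZ1, could not be placed at round 0, where its replicates read 1.63 and -1.01. Its amplified RNAs all lay between -0.94 and -0.38.

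Past the Golgi, 18 features covered clathrin and its adaptors, and 3 of them were called against round 0. Of all features, 20.4% were called at 1 or more rounds. All 3 were small (sigma) subunits of different complexes, of which AP3S2 and AP2S1 rose and AP4S1 fell. The sigma subunits AP1S1 and AP1S3 had no called change. AP3S2, of the AP3 complex that sorts proteins to lysosomes and related organelles, had ratios of -0.05 and -0.18 at round 0, 0.37 and 0.79 at round 1, 0.81 and 1.24 at round 2, and 1.15 and 1.73 at round 3. Both RNAs of each amplified round lay above round 0, and within each replicate the ratio was higher at every further round. It rose by 1.55 ± 0.30 at round 3 (limma adjusted p = 0.0284), against 1.13 at round 2 (0.0595). The sign was alike on both arrays of all 8 swaps. The call was lost without either RNA of round 0 or round 3 (adjusted p up to 0.119).

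AP2S1, of the AP2 complex that loads receptors into clathrin-coated pits at the plasma membrane, had ratios of -1.04 and -0.78 at round 0, 0.20 and 0.82 at round 1, 0.24 and 0.35 at round 2, and -0.48 and -0.35 at round 3. All amplified RNAs were above both unamplified ones, with round 3 nearest to them. It rose by 1.42 ± 0.26 at round 1 (limma adjusted p = 0.0252) and by 1.21 ± 0.26 at round 2 (0.0384). The 2 arrays of a swap gave the same sign in 3 of 8 swaps, while the change at round 1 was 1.47 on the arrays with kidney in Cy5 and 1.36 on those with kidney in Cy3. The call at round 1 was lost without either RNA of round 0 or replicate K of round 1 (adjusted p up to 0.107), that at round 2 in 6 of 8 such fits, and without centring the change at round 1 was 0.41.

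AP4S1, of the AP4 complex that exports cargo from the trans-Golgi network without clathrin, had ratios of 1.67 and 0.53 at round 0, -0.51 and -0.81 at round 1, -0.61 and -0.79 at round 2, and -0.49 and -1.30 at round 3. All amplified RNAs lay below the reference and both unamplified ones above it. It fell at round 1 by 1.76 (limma adjusted p = 0.0483) and at round 3 by 2.00 (0.0383), each with an SE of 0.44, while the change at round 2 was -1.80 (0.0505). The 2 arrays of replicate 1 at round 0 read 0.23 in Cy5 and 3.11 in Cy3. On the Cy5 arrays alone the change at round 3 was -1.23, and the calls held in 0 and 1 of the 8 fits without 1 RNA, the 1 being that without replicate K of round 0.

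The other chains of these coats had no called change. AP1S1, a sigma subunit of the AP1 complex of the trans-Golgi network and endosomes, was the lowest by its mean, at -0.78, -0.41, 0.01 and -0.80. AP2M1, the AP2 subunit that binds tyrosine-based sorting signals, was chosen after its values were seen because it ran like AP2S1, with means of -0.92, 0.25, 0.11 and -0.14 and a change of 1.16 at round 1 that missed the threshold (limma adjusted p = 0.0539). AP2B1, the beta chain that binds clathrin, had one clone in which replicate 1 at round 0 stood apart, with 2.08 against 0.50 in replicate K, and another with means between -0.43 and -0.13. Clathrin itself stayed near the reference: CLTC, the heavy chain, had means of 0.16, -0.41, -0.10 and -0.13 for clone 1 and 0.10, -0.27, -0.11 and 0.27 for clone 2, and CLTA, a light chain, 0.22, -0.52, -0.15 and -0.02.

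**Figure D3:**
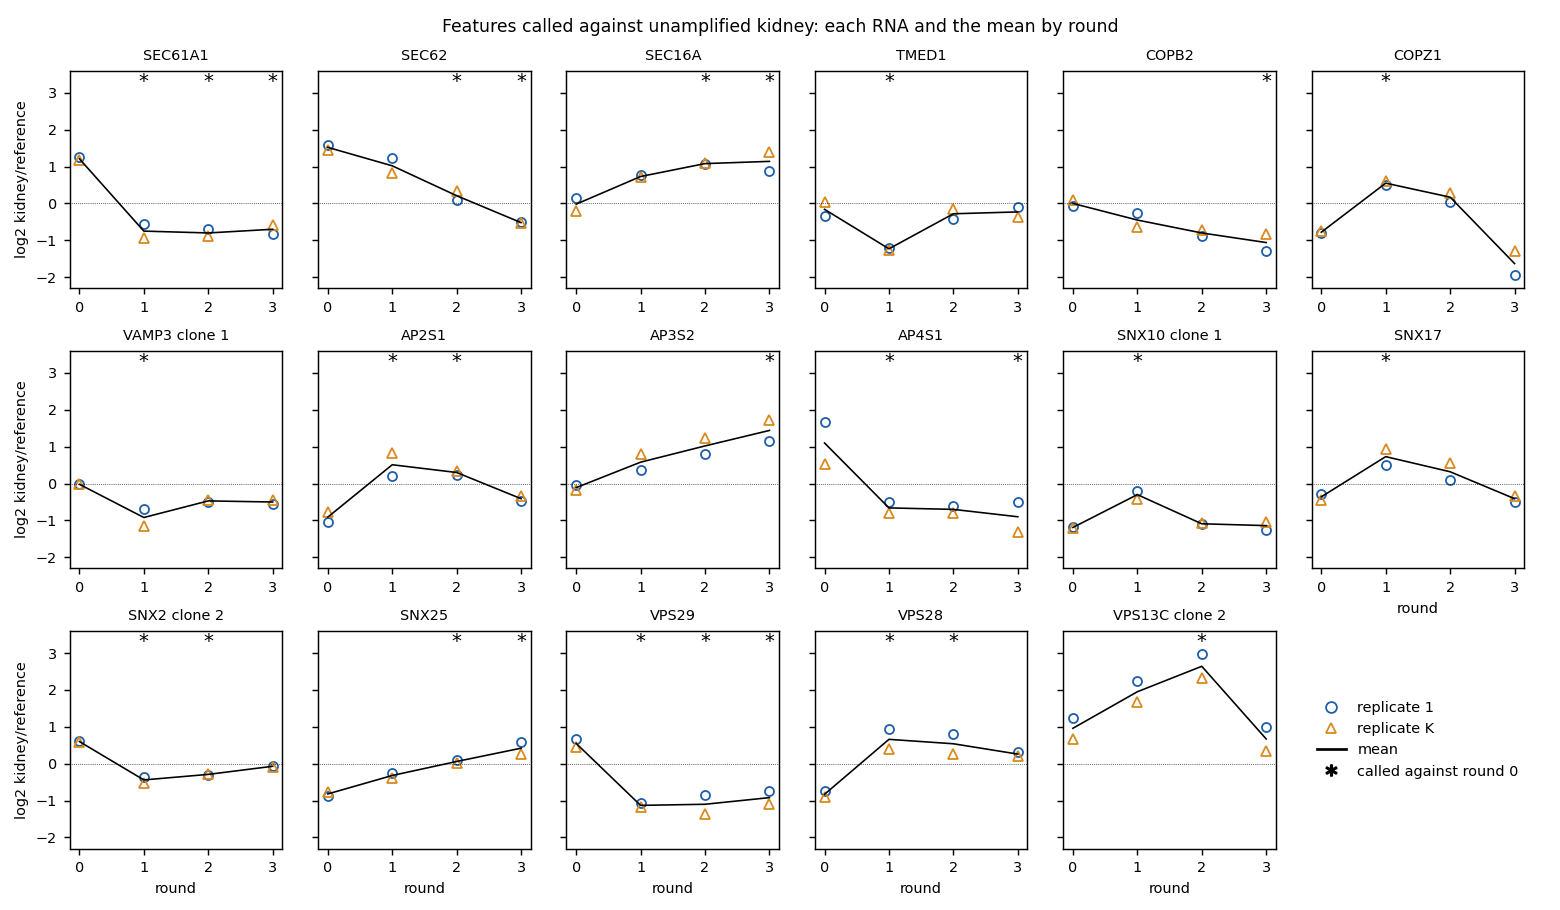
Log2 kidney/reference ratio (vertical) by round (horizontal) for the 17 members called against round 0, with circles for replicate 1, triangles for replicate K, a line through the means and an asterisk at each called round. SEC61A1 and VPS29 carry asterisks at all 3 rounds and stay level after round 1, whereas SEC62 and AP3S2 move step by step, and TMED1, SNX17 and COPZ1 return toward or past their round 0 values.

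The sorting nexins, which bind endosomal membranes through a PX domain, had 6 features called above the reference and 5 below it at round 0, of 16 tested, where 19.6% and 19% of all features were. SNX24, a small PX protein, was the highest, with 1.29 and 1.57 at round 0, 0.96 and 0.92 at round 1, 0.89 and 1.17 at round 2, and 1.04 and 1.31 at round 3. SNX10, which acts on endosomes together with the proton pump, was the lowest, and clone 2 had -0.83 and -0.90, -0.91 and -1.06, -1.15 and -1.37, and -1.10 and -1.07 over rounds 0 to 3. Both were called on 1 side at all 4 rounds, with limma adjusted p of at most 0.00533 and 0.00451, and both had the same sign on the 2 arrays of all 8 swaps.

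SNX22, another small PX protein, was also called below the reference at all 4 rounds, with -0.56 and -0.74, -0.58 and -0.99, -0.77 and -0.77, and -0.65 and -0.79. At round 0 both dye orientations put it below, with -0.52 and -0.51 in Cy5 and -0.60 and -0.96 in Cy3. At the amplified rounds the Cy5 arrays read -2.49 to -1.41 and the Cy3 arrays -0.12 to 1.04. The mean over rounds was -1.50 on arrays with kidney in Cy5 and 0.04 on arrays with kidney in Cy3, and the sign was alike in 3 of 8 swaps, so that at rounds 1 to 3 its place below the reference rests on the Cy5 arrays.

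SNX10 clone 1 had -1.17 and -1.21 at round 0, -0.19 and -0.41 at round 1, -1.10 and -1.08 at round 2, and -1.25 and -1.04 at round 3. It matched clone 2 within 0.32 except at round 1, where it was 0.68 higher. Its rise of 0.89 ± 0.20 at round 1 (limma adjusted p = 0.0394) was 0.33 on arrays with kidney in Cy3, was -0.12 without centring, and held in none of the fits without 1 RNA (adjusted p of 0.0593 to 0.146).

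SNX2, a membrane-bending partner of retromer, gave nearly the same course from 2 clones. Clone 2 had 0.61 and 0.59 at round 0, -0.36 and -0.52 at round 1, -0.30 and -0.27 at round 2, and -0.05 and -0.09 at round 3. Clone 1 had 0.46 and 0.50, -0.19 and -0.43, -0.35 and -0.14, and -0.09 and -0.15. In both clones every amplified RNA lay below both unamplified ones. Clone 2 fell at round 1 by 1.04 (SE 0.19, limma adjusted p = 0.023) and at round 2 by 0.88 (0.0361), while the changes of clone 1, -0.79 and -0.72, missed the threshold (0.051 and 0.0698). The change of clone 2 at round 1 was -0.65 on Cy5 arrays and -1.43 on Cy3 arrays, and its calls were lost in 4 and 6 of the 8 fits without 1 RNA.

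SNX25, a nexin with a domain that regulates G proteins, had -0.88 and -0.76 at round 0, -0.25 and -0.40 at round 1, 0.11 and 0.02 at round 2, and 0.58 and 0.26 at round 3. No 2 neighbouring rounds overlapped. It rose by 0.88 ± 0.21 at round 2 (limma adjusted p = 0.0468) and by 1.24 ± 0.21 at round 3 (0.0217). The call at round 3 was lost without either RNA of round 0 or round 3 (adjusted p up to 0.0941), and that at round 2 in all 8 such fits.

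SNX17, which returns LRP-type receptors from endosomes to the surface, had -0.28 and -0.44 at round 0, 0.51 and 0.95 at round 1, 0.09 and 0.55 at round 2, and -0.50 and -0.33 at round 3. It rose at round 1, by 1.09 ± 0.26 (limma adjusted p = 0.0438), and round 3 overlapped round 0. That change was 0.08 without centring and kept its call in none of the fits without 1 RNA (adjusted p of 0.0571 to 0.17). SNX5, a partner of SNX1 and SNX2, was above the reference in every RNA, between 0.46 and 1.22 over its 2 clones, while SNX1 lay between -0.83 and -0.28 and SNX3, which works with retromer on its own, between -1.30 and -0.46. SNX27, which links retromer to cargo, lacked a value in replicate 1 of round 2 and was not tested. Its other ratios were 1.10 and 1.28 at round 0, -0.26 and 0.16 at round 1, 1.47 at round 2, and 0.59 and -1.63 at round 3.

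Retromer, the complex that retrieves receptors from endosomes, was represented by 2 of its subunits. Their courses are given side by side, and the difference between them was not tested. VPS29 had 0.66 and 0.44 at round 0, -1.07 and -1.18 at round 1, -0.84 and -1.36 at round 2, and -0.74 and -1.10 at round 3. All amplified RNAs were below the reference and both unamplified ones above. It fell by 1.68 at round 1 (limma adjusted p = 0.017), 1.65 at round 2 (0.0189) and 1.47 at round 3 (0.0249), each with an SE of 0.26, and the sign was alike in all 8 swaps. Each call was lost without either RNA of the 2 rounds compared, with adjusted p up to 0.075, 0.0835 and 0.109. VPS26B had 0.29 and 0.50, -0.16 and -0.24, 0.57 and 0.87, and 1.25 and 1.00, with no called change. Its largest change from round 0, 0.73 ± 0.22 at round 3, had a limma adjusted p of 0.0801.

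Of the ESCRT features, VPS28, a subunit of ESCRT-I, had -0.75 and -0.90 at round 0, 0.93 and 0.39 at round 1, 0.81 and 0.27 at round 2, and 0.33 and 0.20 at round 3. All amplified RNAs lay above the reference and both unamplified ones below it. It rose by 1.49 ± 0.29 at round 1 (limma adjusted p = 0.0269) and by 1.37 ± 0.29 at round 2 (0.0351), and the change of 1.09 at round 3 was not called (0.059). The rise at round 1 was 0.34 on arrays with kidney in Cy5, 2.63 on arrays with kidney in Cy3 and 0.48 without centring, and the sign was alike in 4 of 8 swaps. The calls were lost in 4 and 6 of the 8 fits without 1 RNA, those without a round 0 RNA or an RNA of the round compared among them (adjusted p up to 0.116 and 0.137).

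VPS25, of ESCRT-II, was the highest of the 3 ESCRT features, with means of 0.70, 1.06, 0.87 and 0.10. VPS4A, the ATPase that recycles the ESCRT machinery, had -0.24, 0.62, 0.44 and 0.43. Neither had a called change from round 0.

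The 9 features of VPS tethers had no called change from round 0, while 20.4% of all features were called at 1 or more rounds. VPS39, of the HOPS tether at late endosomes and lysosomes, was the highest, with 0.04 and -0.98 at round 0, 0.72 and 2.47 at round 1, 0.20 and 0.45 at round 2, and 0.14 and 1.14 at round 3. Its change of 2.07 at round 1 had an SE of 0.66 (limma adjusted p = 0.0906). VPS53, of the GARP tether at the trans-Golgi network, was the lowest, with -0.15 and 0.31, -0.10 and -0.06, -0.86 and -0.71, and -1.28 and -0.24. The means of the other 7 features lay between -0.43 and 1.37.

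Among 14 SNARE features, the proteins that drive membrane fusion, 1 was called against round 0, while 20.4% of all features were called at 1 or more rounds. VAMP3, a vesicle SNARE of recycling endosomes, had in clone 1 -0.02 and -0.01 at round 0, -0.69 and -1.15 at round 1, -0.49 and -0.44 at round 2, and -0.56 and -0.44 at round 3. It fell at round 1 by 0.90 (SE 0.23, limma adjusted p = 0.0482), and the call held in none of the fits without 1 RNA (adjusted p of 0.0513 to 0.168). Clone 2 did not follow, with means of 0.03, 0.33, 0.54 and -0.37. STX6, a syntaxin of the trans-Golgi network, was the lowest SNARE feature by its mean, at -0.12, -0.56, -1.05 and -0.50. It was called below the reference at round 2 (limma adjusted p = 0.00695), while its change from round 0 to that round, -0.93, was not called (0.0725).

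STX3, the syntaxin of the apical surface in epithelia, could not be placed. Clone 3, the highest SNARE feature, had means of 0.40, 0.70, 1.59 and 0.11 with the same sign in 2 of 8 swaps, clone 2 had 1.44, 0.22, 0.11 and 0.06, and clone 1 had -2.92 and 1.10 in the 2 RNAs of round 1 alone. STX10, another syntaxin of the trans-Golgi network, read -0.95 and 1.65 at round 0. STX12, of recycling endosomes, was below the reference in every RNA, between -0.89 and -0.13, with the same sign in all 8 swaps.

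The rule also took up 4 features outside the compartments above, of lipid transfer and lipid-binding proteins. VPS13C, a lipid transfer protein between the ER and late endosomes, had in clone 2 the highest mean ratio of all members, with 1.23 and 0.68 at round 0, 2.23 and 1.67 at round 1, 2.96 and 2.31 at round 2, and 0.99 and 0.34 at round 3. It rose by 1.68 ± 0.38 at round 2 (limma adjusted p = 0.0411), and round 3 overlapped round 0. That call held in none of the fits without 1 RNA (adjusted p of 0.055 to 0.17), and 14 of 16 arrays had a value, since replicate 1 of rounds 1 and 3 lacked the Cy5 array. Clone 1 of the same gene lay at 0.01, -0.14, -0.26 and -0.13. SEC14L1 and SEC14L6, of a family of lipid-binding proteins, had means of -0.12, 0.89, 0.31 and -0.29, and of 1.27, -0.26, 0.82 and -0.05, with no called change.

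Of 16 genes with several clones, 7 had means within 0.5 of each other at every round. The largest gap was 0.09 for SEC11A, 0.13 for SNX2, 0.16 for TMED4, 0.23 for COPG2, 0.40 for CLTC, 0.45 for TMED9 and 0.49 for SNX5. In 5 genes the gap passed 1 at some round, with 1.25 for VAMP3, 1.35 for SEC31A, 1.42 for AP2B1, 1.61 for STX3 and 2.90 for VPS13C. The called changes of SNX10, VAMP3 and VPS13C each came from 1 of 2 clones, and the other clone was not called. The difference between clones was not tested.

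**Figure D4:**
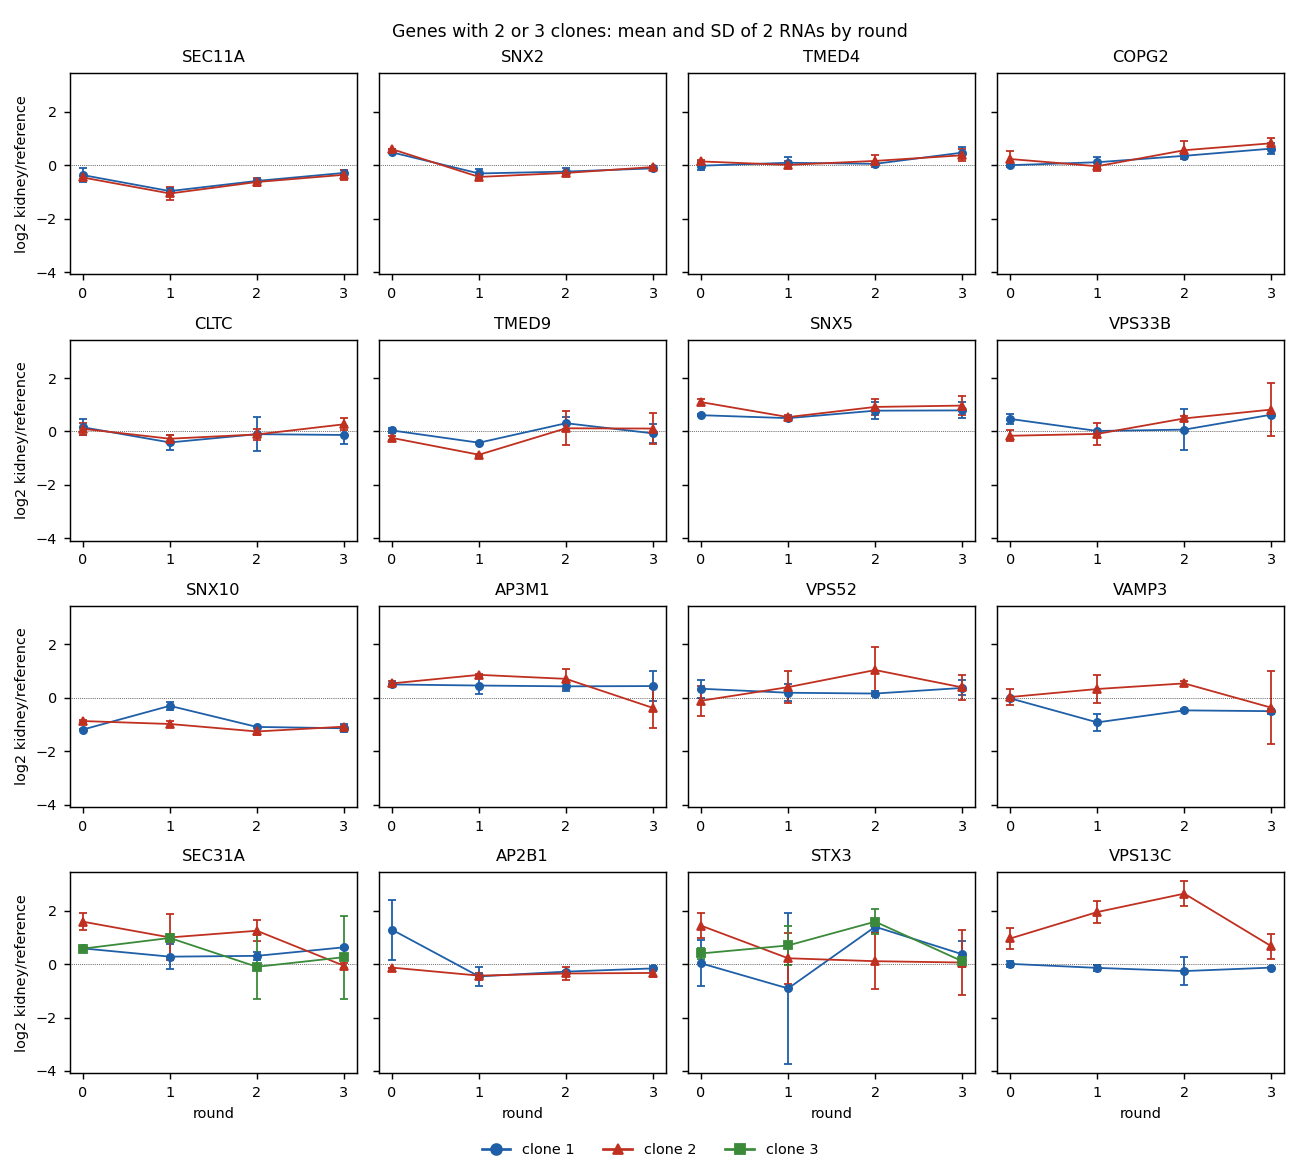
Mean log2 kidney/reference ratio (vertical) by round (horizontal) for the 16 genes with 2 or 3 clones, ordered from the smallest to the largest gap between clones, with bars of 1 SD over the 2 RNAs of a round. The clones of SEC11A, SNX2 and TMED4 run together, while those of VPS13C are up to 2.90 apart.

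Dye agreement differed among the called members. It concerns the side of the reference on which a ratio lies, not the change between rounds. Among all members, 11 had the same sign on both arrays of all 8 swaps. Of the 17, 5 had the same sign on both arrays of all 8 swaps (SEC61A1, COPZ1, AP3S2, AP4S1 and VPS29), 9 in at least 7 swaps, and 3 in 4 or fewer (AP2S1, SNX2 clone 2 and VPS28). The change of SNX2 clone 2 at round 1 was nonetheless below 0 in both orientations, at -0.65 and -1.43, and that of AP2S1 above 0 in both, at 1.47 and 1.36.

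Other genes of membrane traffic outside the rule were read from a list of 144 genes, 72 of which were on the array with 93 tested features. At rounds 1, 2 and 3 against round 0, 3, 1 and 4 of these features rose, beside 5.4%, 4.39% and 4.57% of all features, and 6, 5 and 3 fell, beside 7.87%, 6.79% and 7.04%, with median changes of -0.04, 0.01 and -0.04. SURF4, a cargo receptor that cycles between ER and Golgi, had the largest called falls in clone 1, with changes of -2.73, -2.98 and -3.11 at rounds 1, 2 and 3 (limma adjusted p = 0.0108, 0.00974 and 0.00817), while clone 2 rose by 1.25 at round 1 (0.0263). The changes of its clone 3, -0.85, -2.08 and -1.40, were not called. DAB2, the clathrin adaptor of megalin in kidney tubules, had ratios of 2.90, 1.85, 1.36 and 0.49, and fell at round 2 by 1.54 (0.0236) and at round 3 by 2.40 (0.00819). KDELR3, a receptor that returns ER proteins, fell in clone 2 at round 1 by 1.60 (0.0212), while its clone 1 changed by -0.45 (0.183). Of the Golgi tether COG, COG8 rose at rounds 1 and 2 by 2.60 and 2.09 (0.0275 and 0.0484), and 1 of 4 clones of COG1 rose at round 3, by 1.66 (0.0429), where the other clones changed by 0.13 to 0.23. GAK, which uncoats clathrin vesicles, rose at round 3 by 1.21 (0.0204).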

How the data were processed

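The authors deposited log2 ratios of the 2 channels for 15 arrays, per the labels' channel descriptions and the values. The deposited column of kidney replicate 1, round 1, in Cy3 is named a score as a whole, because 52 of its numbers lie outside the range of such ratios. Its remaining numbers were used as log2 ratios. The sources used here give no image software, background correction or normalization. In that column and in the others, numbers beyond 10 in size (among them 16.61, a code of an undefined ratio) were taken as missing. Of 16896 spots, 83.9% to 95.0% had a ratio on an array, and precision is limited by how many arrays there were. No intensities were used, so dim spots could not be filtered.

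Duplicate spots were averaged and arrays with kidney in Cy3 had their sign turned. Centring subtracted the median of the listed features on every array, after which both dye orientations of an RNA were averaged. With data.table version 1.17.8 and R 4.3.3, limma 3.58.1 fitted a mean per round with lmFit and eBayes (4 residual and 2.4 prior degrees of freedom) to 5537 features measured in all 8 RNAs. The Benjamini-Hochberg adjustment ran over all of them, and the threshold was 0.05. Alternatives changed centring, scaling, dye orientation, duplicate spots, the replicate block, single RNAs and the rounds fitted together.

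The members and lists were chosen with earlier results of these data known. Features named with full values were, by rule, the highest and lowest mean ratio of each compartment, every called member, members called on the same side at every round, their other clones, and the 2 largest called changes each way at each round in the wider trafficking list. Other members were named after their values were seen. Symbols of all 92 single-gene features were the same in a current gene table. No sequences or genome positions were used here.

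Residuals of same-numbered replicates correlated above 0.1 in 1 of 6 pairs of rounds (-0.046 to 0.169), so the replicate names were not shown to pair samples.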

Additional observations from a re-analysis of the deposited data

How the results depend on the processing

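At round 1 against round 0, 11 members and 735 of all features were called. The count was 38 members without centring (1868 of all features), 4 on Cy5 arrays only (207) and 19 on Cy3 arrays only (1009). It was 3 without the round 1, replicate 1, Cy3 array (346) and 0 with only the 2 rounds compared in the fit (2). At round 2 (9 called, beside 619 of all features) these settings gave 1, 2, 3, 4 and 1, beside 67, 252, 507, 340 and 145. At round 3 (8 called, beside 643 of all features) no centring gave 3 (130), leaving out that array 5 (310), and the fit of 2 rounds 2 (200). Members tested numbered 81 on Cy5 arrays only, 87 on Cy3 arrays only and 89 without that array, in place of 92. Against the reference at round 0, Cy5 arrays only gave 18 in place of 29, beside 1545 in place of 2142 of all features. At round 1, where 31 and 2092 were called, Cy5 arrays only gave 20 (1480), no centring 17 (1466) and leaving out that array 20 (1725). At round 3 no centring gave 12 in place of 22, beside 1222 in place of 1942 of all features. Between amplified rounds, 1 member and 16 of all features were called. The member count was 0 without centring (0 of all features), with scaled arrays (13) and on Cy3 arrays only (0). It was also 0 without that array (15) and with the replicate block (12). Over the 56 members with both duplicate spots on all 16 arrays it was 9, beside 343 of all features so filtered. The cause was not tested.

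Leaving out 1 RNA gave 9 to 28 calls against the reference at round 0, 11 to 26 at round 1, 8 to 25 at round 2 and 8 to 24 at round 3, with the lowest counts without an RNA of that round (9 and 10, 22 and 11, 12 and 8, 15 and 8 without replicates 1 and K). Changes from round 0 ranged from 1 to 6, 0 to 6 and 1 to 6, and amplified rounds gave 0 to 0. Without replicate 1 or K of round 0 the 3 counts were 2 and 3, 1 and 3, and 2 and 5. Without an RNA of the round compared they were 2 and 1, 0 and 0, and 2 and 1. Such fits have fewer samples. Against the reference, the counts over all features were also lowest without an RNA of that round. For changes from round 0 and between amplified rounds, every such fit also called fewer of all features than the fit of all RNAs.

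Of 33 named results, 2 changed direction: SNX10 clone 1 at round 1 minus round 0 was -0.12 without centring, and the mean of SNX22 was 0.04 on Cy3 arrays only. Scaled arrays left 30 of 33 on their side of the threshold, the replicate block 24, and the filter on duplicate spots all 22 it could test. Without centring 14 of 33 kept their call, on Cy5 arrays only 13 of 32 and on Cy3 arrays only 16 of 33. Leaving out the round 1, replicate 1, Cy3 array kept 16 of 32, and fitting only the 2 rounds compared kept 3 of 28. The replicate block gave 30, 26, 28 and 24 calls against the reference, beside 2149, 2081, 1931 and 1906 of all features. Its changes from round 0 numbered 9, 7 and 7, beside 629, 521 and 567.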
